A study of Hernandia nymphaeifolia with 9 samples.

Results

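Leaves of Hernandia nymphaeifolia, a coastal tree that grows beside mangroves, were compared after 14 days and after 7 days of salt water. The comparison used 6 of the 9 libraries of the series: the 3 libraries labelled 300 mM NaCl for 14 d against the 3 labelled 300 mM NaCl for 7 d. The 3 fresh water libraries entered no test and are given for context only. All plants were 2-year-old seedlings whose shoots were put under water as far as the branches for 3 h in each 12 h period, the fresh water group included. Each library holds polyadenylated leaf RNA. The labels give 3 individuals per treatment and do not state whether the same seedlings were sampled at 7 d and at 14 d, or on which day the fresh water seedlings were sampled. There was no fresh water group for each time, so the length of the salt treatment and the time spent in the experiment cannot be told apart. The values are estimated read counts per assembled transcript, summed here to assembled genes (the identifier before the final isoform number). Of 315331 assembled genes, 56881 had enough counts in the 6 salt libraries to be tested.

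Salt water acts on leaves first as an osmotic stress, which closes stomata and slows growth, and later as an ionic stress, as sodium and chloride build up in older leaves. In woody plants of the shore, acclimation over days to weeks is known to involve ion exclusion or storage in vacuoles, compatible solutes, and changes of photosynthesis and of scavenging of reactive oxygen. The identifiers used here come from a transcriptome assembled without a genome and carry no gene names. Genes are therefore described by their abundance, direction and level in each seedling, and the leaf label was not checked against marker genes.

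Depth was alike, with totals from 13373952 to 13723144 counts at 14 d and from 13166552 to 13962234 at 7 d. Levels are given as CPM, the counts of a gene per 1000000 counts of the scaled library size. A library needed 3 counts to reach 0.217 to 0.231 CPM at 14 d and 0.219 to 0.240 CPM at 7 d, and a gene below that is not shown to be absent. CPM is not divided by transcript length, so the abundance bands used below are bands of read abundance.

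The salt times were separate in their leading genes, and the third 14 d library lay away from its group. On the 500 most variable genes, libraries of different times lay on average 37.4 log2 units farther from each other than libraries of the same time. An exact permutation test of this difference gave p = 0.1, its lowest possible value with 3 libraries per time. The difference was 58.2 without 14 d replicate 3, and 28.7, 31.0 and 27.0 without 7 d replicates 1, 2 and 3, where the exact permutation p was 0.2. The mean distance within a time was 44.1 at 14 d and 19.0 at 7 d, while it was 69.0 between the times. The wide spread at 14 d came with replicate 3: it lay 54.5 and 51.8 from 14 d replicates 1 and 2, which lay 25.9 from each other. Over the 20180 genes with a mean of 5 CPM or more, 14 d replicates 1 and 2 had a correlation of 0.983 across genes, 14 d replicate 3 had 0.939 and 0.940 with them, and the 7 d libraries had 0.974 to 0.986 with one another. 14 d replicate 3 had correlations of 0.924 to 0.933 with the 7 d libraries, above those of 14 d replicates 1 and 2, at 0.884 to 0.923. Genes are not independent replicates, so these correlations are descriptions of the libraries.

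**Figure D1:**
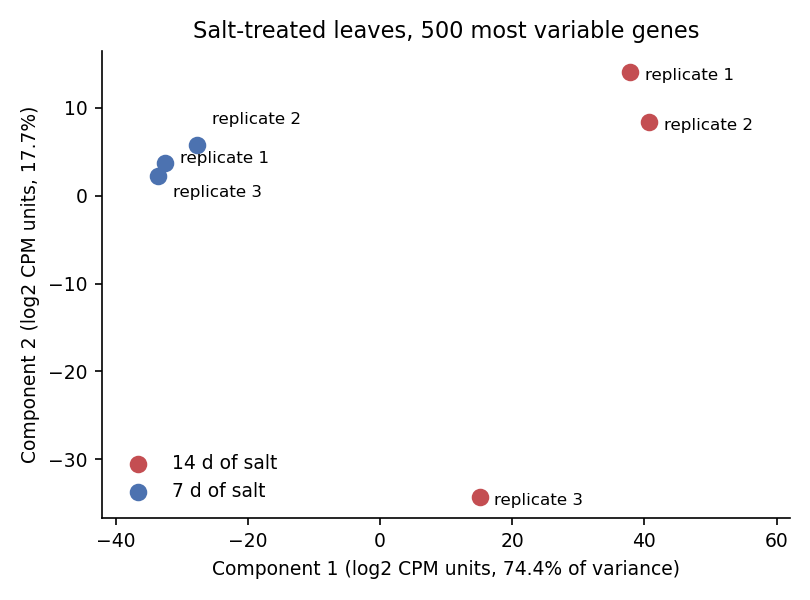
First and second principal components of log2 CPM over the 500 most variable assembled genes, 1 point per library, with 14 d libraries in red and 7 d libraries in blue. The first component, with 74.4% of the variance, placed 14 d replicates 1 to 3 at 37.9, 40.7 and 15.1 and 7 d replicates 1 to 3 at -32.5, -27.6 and -33.6, while the second, with 17.7%, set 14 d replicate 3 at -34.2 apart from all others.

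Leaves at 14 d and at 7 d differed in 7408 assembled genes, 13.0% of those tested, at a Benjamini-Hochberg adjusted p below 0.05 in edgeR (quasi-likelihood test). Of these, 4459 (7.84% of genes tested) were higher at 14 d and 2949 (5.18%) were lower. The median log2 change was 1.23 among the higher and -1.01 among the lower genes, against 0.01 over all genes tested. At least 2-fold changes were fitted for 2910 of the higher and 1506 of the lower genes, and at least 4-fold changes for 713 and 311. In 4398 of the higher and 2922 of the lower genes all 3 libraries of one time lay above all 3 of the other, and in the remaining 88 called genes the times overlapped. Over all genes tested, 32.3% had no overlap between the times in either direction. An unadjusted p under 0.05 was reached by 15624 genes.

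The number of calls rested on single libraries. Without 14 d replicate 3 it was 12573, and without 14 d replicates 1 or 2 it was 4806 or 3800. Without 7 d replicates 1, 2 or 3 it was 4362, 4889 or 3263. Of the 7408 genes, 7092 remained called when 14 d replicate 3 was left out, 3156 remained called when 7 d replicate 3 was left out, and none changed direction in any of these 6 fits. Leaving out a library also leaves fewer samples for the test.

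**Figure D2:**
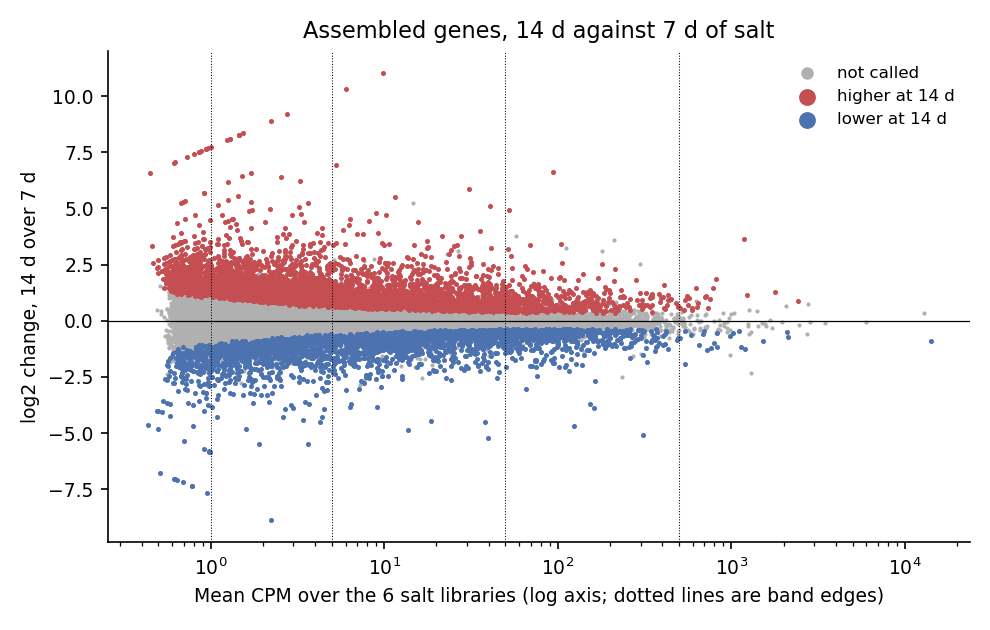
Fitted log2 change of each of the 56881 tested assembled genes (14 d over 7 d, vertical axis) against its mean CPM over the 6 salt libraries (horizontal log axis), with called genes in red (higher at 14 d) and blue (lower at 14 d) and all others in grey. Dotted lines mark the band edges at 1, 5, 50 and 500 CPM. The slanting rows of points beyond 6 log2 units at low CPM hold genes with few or no counts at 1 time, whose fitted changes are no measured sizes.

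Calls were found at all levels of abundance, and the calls among genes of low abundance were mostly higher at 14 d. Among the 8897 tested genes with a mean under 1 CPM, 548 were higher and 236 lower. Among the 27804 genes from 1 to 5 CPM, 1879 were higher and 905 lower. Calls in both bands were thus mostly higher at 14 d, with shares of 69.9% and 67.5%. Leaving out 1 library gave 58.7% to 79.9% and 59.6% to 70.3%, and no filter on low counts gave 67.0% and 61.3%. The filter needed about 10 counts in as many libraries as 1 time holds. A gene called under 1 CPM could thus pass it through its higher time alone, and all 784 calls there were at least 2-fold. These shares therefore describe the genes that passed. Over all tested genes of these bands, called or not, 57% and 53.5% had a positive change, and the median log2 change under 1 CPM was 0.10, or -0.06 without a filter on low counts. Among the 15508 genes from 5 to 50 CPM, 1565 were higher and 1235 lower, or 55.9% of calls, which was 49.4% without a filter on low counts. Among the 4555 genes from 50 to 500 CPM, 446 were higher and 552 lower. The 44.7% of calls that were higher in that band turned to a majority of 52.5% with scaling by total counts only, 56.7% at an adjusted p below 0.01, 52.1% when only genes of 5 CPM or more were fitted, and 53.0%, 51.9% and 55.6% without 14 d replicate 2, 7 d replicate 1 and 7 d replicate 3. Among the 117 genes of 500 CPM or more, 21 were higher and 21 lower, and the share of higher calls lay between 39.7% without 14 d replicate 3 and 60.0% at an adjusted p below 0.01.

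The share of genes called grew with abundance, from 8.81% under 1 CPM to 10%, 18.1%, 21.9% and 35.9% in the bands above it. The median standard error of the log2 change was 0.388 under 1 CPM, 0.292 from 1 to 5, 0.170 from 5 to 50, 0.123 from 50 to 500 and 0.145 at 500 CPM or more, so it fell up to 500 CPM and was larger above. Sizes did not follow the order of the shares. A fitted change of at least 2-fold in either direction, called or not, was found in 15.7% of genes under 1 CPM, 10.9% from 1 to 5, 7.98% from 5 to 50, 5.4% from 50 to 500 and 17.1% at 500 CPM or more. The most abundant genes were thus both often called and often changed by 2-fold or more, and their median SD of log2 CPM within a time was 0.231 at 14 d and 0.169 at 7 d, against 0.131 and 0.122 from 50 to 500 CPM.

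**Figure D3:**
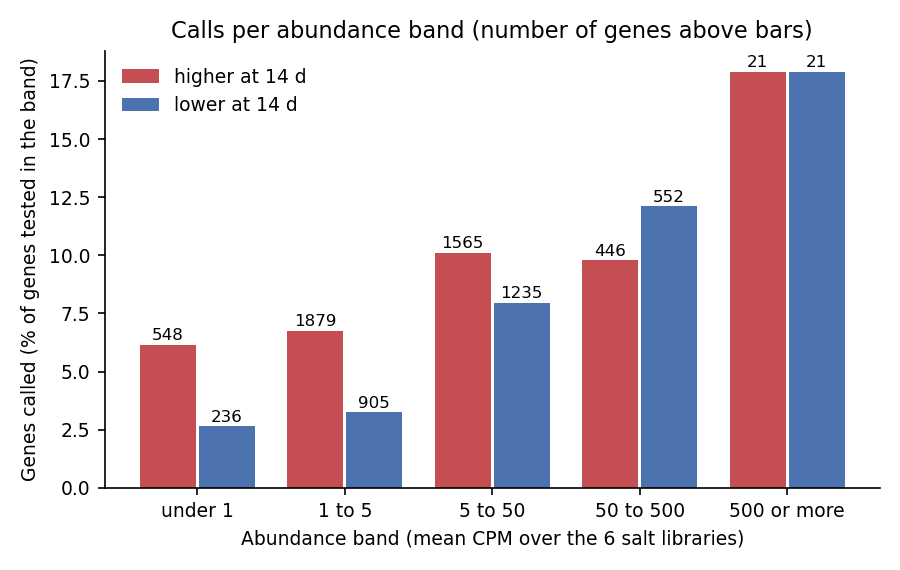
Share of the tested assembled genes of each abundance band (mean CPM over the 6 salt libraries) that were called higher at 14 d (red) or lower at 14 d (blue), with the number of genes above each bar. Higher calls outnumbered lower ones by 548 to 236 under 1 CPM and by 1879 to 905 from 1 to 5 CPM, and both directions held 21 genes at 500 CPM or more.

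Shares of counts per band differed little between the times, and no exact test of them went below 0.1. Genes from 50 to 500 CPM held 49.3%, 49.2% and 49.2% of all counts in the 3 libraries at 14 d, against 50.4%, 49.7% and 50.3% at 7 d. The difference of -0.95 percentage points had an exact two-sided permutation p of 0.1, the smallest possible, and 0.24 after Benjamini-Hochberg adjustment over 6 classes (the 5 bands and untested genes). Genes from 1 to 5 CPM held 6.20 ± 0.314% at 14 d and 5.74 ± 0.164% at 7 d (SD, n = 3 each), and here the times overlapped (exact permutation p = 0.2, adjusted 0.24). The median log2 deviation of a library from the mean of all 6 was computed over genes as well. Under 1 CPM it was 0.07, 0.11 and 0.14 at 14 d, against -0.01, 0.04 and -0.04 at 7 d (exact permutation p = 0.1, adjusted over the 5 bands and all genes together 0.3). From 50 to 500 CPM it was 0.01, -0.06 and -0.07 at 14 d, against 0.06, 0.01 and 0.06 at 7 d, so that 14 d replicate 1 lay among the 7 d libraries (exact permutation p = 0.2, adjusted 0.3).

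The genes named below were taken by a rule: in each band from 5 CPM up, the 4 genes called higher and the 4 called lower whose times were farthest apart, measured from the nearest libraries of both times on the log2 CPM scale. The rule used the measured values of this comparison, so the gaps describe its largest shifts and are not a further test. All 24 kept their call and direction in each of the fits that left out 1 library. The choice of called genes with the widest gaps favours this outcome, so it is a description too. All 21 tested isoforms of the higher genes had the direction of the gene and were called at the transcript level. Of the 24 tested isoforms of the lower genes, 20 were called, and all had a negative fitted change. A gene is the sum of its isoforms, so part of this is set by construction. Only 1 isoform was assembled for 5 of the higher and 7 of the lower genes. None of the 24 has a known name or role in the sources used here.

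Among genes of 5 to 50 CPM, the widest gaps of the higher genes were cases of near absence at 7 d. TRINITY_DN10346_c0_g1 had 25.1, 25.8 and 8.40 CPM at 14 d and no count in any 7 d library. Set against a floor of 3 counts over the 7 d libraries, its 14 d level was at least 259-fold higher, with an edgeR adjusted p of 0.000263. The counting bound is the only size that can be given for it, and the lowest of its 14 d libraries was replicate 3. Fresh water seedlings also differed in this gene, with 97, 0 and 0 counts. TRINITY_DN6751_c0_g2 had 11.5, 12.9 and 7.17 CPM at 14 d, against 0, 0.146 and 0.0799 CPM at 7 d, where 3 counts were found in all. TRINITY_DN23988_c0_g3 had 17.8, 25.1 and 16.4 CPM at 14 d, against 0.769, 0.731 and 0.719 CPM at 7 d, a log2 change of 4.72 ± 0.245 (SE, n = 3 each, edgeR adjusted p = 6.52e-06). TRINITY_DN1090_c0_g2, the fourth, had 15.1, 15.9 and 16.1 CPM at 14 d, against 0.538, 0.877 and 0.719 CPM at 7 d (log2 change 4.44). In TRINITY_DN1090_c0_g2 the 14 d seedlings were nearly equal, replicate 3 included.

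The lower genes of the same band had low levels at 14 d. TRINITY_DN10242_c0_g2 fell to 1.85, 1.87 and 2.53 CPM at 14 d, against 82.5, 75.5 and 74.8 CPM at 7 d, a log2 change of -5.21 ± 0.163 (SE, n = 3 each, edgeR adjusted p = 3.46e-07). It had the lowest adjusted p of the 24. TRINITY_DN17041_c0_g1 fell to 0.769, 0.897 and 1.01 CPM at 14 d, against 28.1, 30.7 and 21.3 CPM at 7 d, and its 4 isoforms were each called lower. TRINITY_DN6293_c0_g1 (1.61, 2.02 and 1.16 CPM at 14 d, against 34.7, 37.4 and 34.8 CPM at 7 d) and TRINITY_DN4829_c0_g2 (1.54, 0.523 and 1.45 CPM, against 18.3, 13.9 and 18.6 CPM) each had 1 assembled isoform. Log2 changes of these 4 genes were -5.21 to -3.84.

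Among genes of 50 to 500 CPM, TRINITY_DN942_c0_g1 had the widest gap of the higher genes. It had 92.7, 108 and 78.6 CPM at 14 d, against 9.45, 11 and 9.59 CPM at 7 d, a log2 change of 3.21 ± 0.153 (SE, n = 3 each, edgeR adjusted p = 4.09e-06). TRINITY_DN34346_c0_g1 was the most abundant of the 4, with 323, 390 and 350 CPM at 14 d, against 78.9, 68.5 and 66.8 CPM at 7 d. Both genes were uniform within each time. TRINITY_DN38859_c0_g1 (86.9, 123 and 75.3 CPM at 14 d, against 10.8, 13.6 and 14.3 CPM at 7 d) rose with its 3 isoforms. TRINITY_DN11211_c0_g5 varied most between seedlings, with 58.8, 134 and 188 CPM at 14 d, against 13.1, 12.6 and 10.5 CPM at 7 d, and here 14 d replicate 3 was the highest library.

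The lower genes of that band were led by TRINITY_DN8664_c0_g6, which fell to 16.3, 26.8 and 21.1 CPM at 14 d, against 279, 355 and 217 CPM at 7 d, a log2 change of -3.73 ± 0.225 (SE, n = 3 each, edgeR adjusted p = 1.83e-05). TRINITY_DN5883_c0_g1 fell to 34.0, 47.0 and 52.0 CPM at 14 d, against 257, 230 and 360 CPM at 7 d. TRINITY_DN14782_c0_g1 (32.1, 21.5 and 16.1 CPM at 14 d, against 120, 134 and 133 CPM at 7 d) was called lower as a gene, with 1 of its 3 tested isoforms called. TRINITY_DN5170_c0_g1 had the smallest change of the 4, with 47.0, 52.4 and 60.1 CPM at 14 d, against 188, 187 and 229 CPM at 7 d, a log2 change of -1.92.

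The 4 higher genes with the widest gaps at 500 CPM or more had smaller changes than those named in the bands below, with log2 changes of 1.06 to 1.85. TRINITY_DN31859_c0_g1 had 1281, 1492 and 1065 CPM at 14 d, against 362, 366 and 340 CPM at 7 d, a log2 change of 1.85 ± 0.140 (SE, n = 3 each, edgeR adjusted p = 6.12e-05). TRINITY_DN3629_c0_g1 had 1131, 1306 and 1007 CPM at 14 d, against 428, 434 and 406 CPM at 7 d. TRINITY_DN3923_c1_g1 had 2623, 2825 and 2139 CPM at 14 d, against 988, 1127 and 985 CPM at 7 d. In each of these 3 genes 14 d replicate 2 was the highest and 14 d replicate 3 the lowest of the 14 d libraries. The fourth, TRINITY_DN3845_c2_g2, had 882, 1091 and 897 CPM at 14 d, against 509, 450 and 413 CPM at 7 d.

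Among the lower genes of 500 CPM or more, TRINITY_DN1158_c0_g1 fell to 705, 666 and 771 CPM at 14 d, against 1843, 1573 and 1644 CPM at 7 d, a log2 change of -1.24 ± 0.121 (SE, n = 3 each, edgeR adjusted p = 0.000186). TRINITY_DN5701_c0_g1 fell further, to 284, 196 and 197 CPM at 14 d, against 1172, 538 and 864 CPM at 7 d, with a wide spread among the 7 d seedlings. TRINITY_DN11718_c0_g2 had 833, 794 and 501 CPM at 14 d, against 1632, 1520 and 1564 CPM at 7 d, so that 14 d replicate 3 was the farthest from the 7 d group in this gene. TRINITY_DN27262_c1_g1 had 532, 334 and 396 CPM at 14 d, against 970, 938 and 1190 CPM at 7 d. Log2 changes of the 4 lower genes were -1.93 to -1.15.

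**Figure D4:**
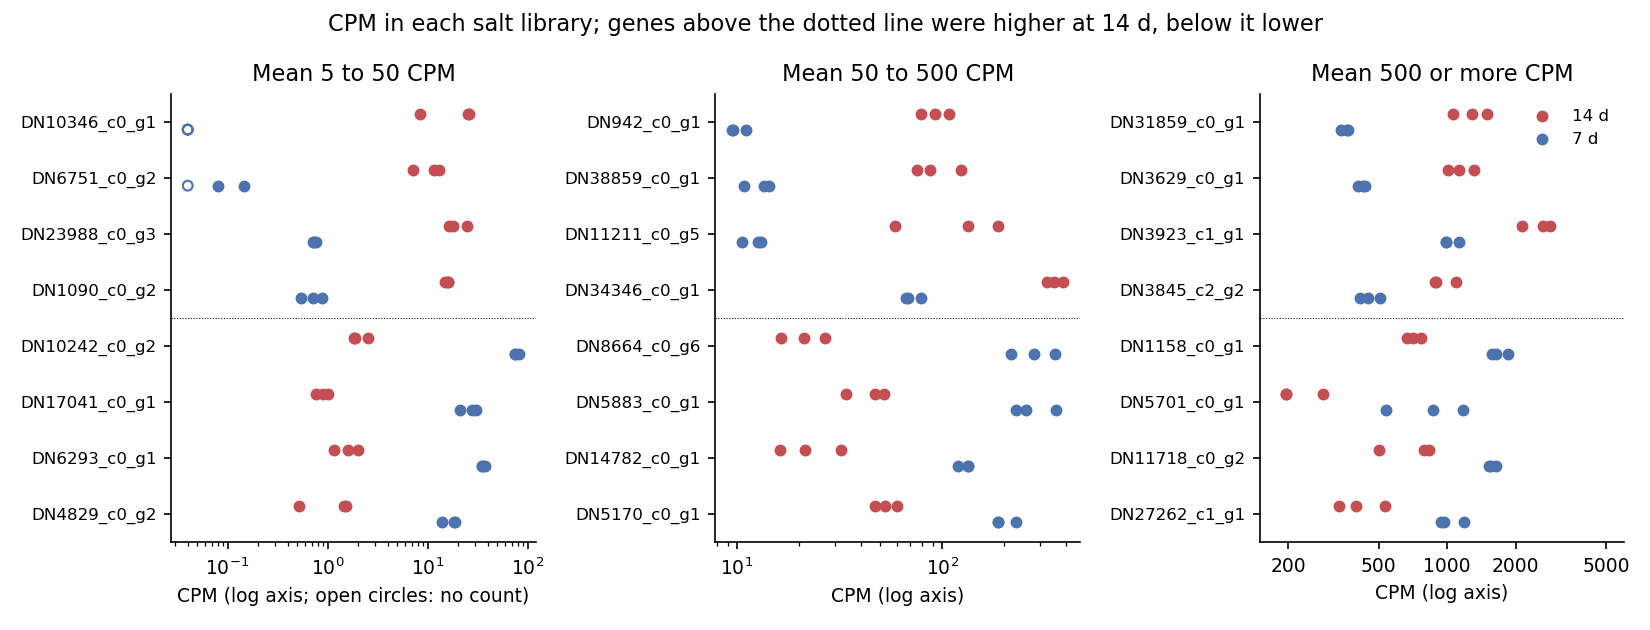
CPM of the 24 named assembled genes (horizontal log axes) in each of the 3 libraries at 14 d (red) and the 3 at 7 d (blue), in 3 abundance bands, with the TRINITY prefix left off. Open circles at the left edge stand for libraries without a count. In every gene the 3 points of one time lie apart from the 3 of the other, and the distance is widest in the band of 5 to 50 CPM.

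Of the 4 genes with the highest mean CPM, 1 was called. TRINITY_DN7280_c0_g3 fell to 11478, 8317 and 9595 CPM at 14 d, against 16894, 17220 and 21116 CPM at 7 d, a log2 change of -0.91 ± 0.158 (SE, n = 3 each, edgeR adjusted p = 0.00436). All 3 of its isoforms were called lower, and no library of one time reached into the other. TRINITY_DN4062_c0_g2 had 20980, 10456 and 12020 CPM at 14 d, against 8348, 14838 and 10832 CPM at 7 d, so the times overlapped widely (log2 change 0.35 ± 0.269, SE, n = 3 each, edgeR adjusted p = 0.442). Without a filter on low counts it was called (log2 change 0.32, edgeR adjusted p = 0.0243). TRINITY_DN8316_c0_g1 (log2 change -0.04, edgeR adjusted p = 0.920) and TRINITY_DN7702_c0_g1 (log2 change -0.12, edgeR adjusted p = 0.794) also overlapped between the times. The call of TRINITY_DN7702_c0_g1 turned on 14 d replicate 3, which had 4775 CPM against 2790 and 2325 CPM in 14 d replicates 1 and 2: without it the log2 change was -0.49 (edgeR adjusted p = 0.0145).

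Some genes were seen at 1 of the times only. With 10 or more counts in each library of one time and none in any of the other, 24 genes were seen only at 14 d and 10 only at 7 d. Most were of low abundance, with a median of 1.96 CPM at 14 d for the first set and 1.33 CPM at 7 d for the second. Without 14 d replicate 3 the numbers were 67 and 30, and without 7 d replicate 1 there were 22 seen only at 7 d. Leaving out a library drops a condition of the rule, so these numbers could only stay or rise. The most abundant of the second set, TRINITY_DN18674_c0_g1, had no count at 14 d, against 3.30, 5.11 and 4.87 CPM at 7 d, which makes its 14 d level at least 59.4-fold lower, with an edgeR adjusted p of 0.000151. TRINITY_DN86141_c0_g1 followed, also without a count at 14 d, against 2.77, 1.39 and 1.60 CPM at 7 d, at least 25.7-fold lower (edgeR adjusted p = 0.00104). These bounds cover counting error only. In the first set TRINITY_DN10346_c0_g1, described above, was the most abundant and was followed by TRINITY_DN18782_c0_g1, which had 1.15, 0.972 and 33.9 CPM at 14 d and no count at 7 d (edgeR adjusted p = 0.0387). It had 469 counts in 14 d replicate 3 and 15 and 13 in replicates 1 and 2, and leaving out each 7 d library in turn ended the call (edgeR adjusted p = 0.0983 to 0.122). Of the 24 genes seen only at 14 d, 15 had counts in all 3 fresh water libraries, as had 4 of the 10 seen only at 7 d. In 2 of the 24 and 3 of the 10 no fresh water library had a count. The rest had counts in some fresh water libraries and none in others. These included TRINITY_DN10346_c0_g1 (97, 0 and 0 counts) and TRINITY_DN18674_c0_g1 (0, 52 and 40 counts). TRINITY_DN18782_c0_g1 had 1, 636 and 441 counts in fresh water.

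Of the 7408 called genes, 10 had at least 80% of the CPM of the higher time in 1 library, among them the largest fitted change in each direction from 50 to 500 CPM. The genes of this kind named here were picked after their values were seen. TRINITY_DN9098_c0_g1 had 551 CPM in 14 d replicate 1 and 1.79 and 1.95 CPM in the other 14 d libraries, against 2.15, 1.97 and 1.44 CPM at 7 d. It had a log2 change of 6.63, with an edgeR adjusted p of 0.0440, that became 0.01 without that library (edgeR adjusted p = 0.993), and leaving out each 7 d library in turn also ended the call (edgeR adjusted p = 0.134 to 0.162). TRINITY_DN2148_c0_g1 had 19.8, 15.5 and 18.1 CPM at 14 d, against 24.4, 1740 and 31.2 CPM at 7 d, and its log2 change of -5.07 became -0.66 without 7 d replicate 2 (edgeR adjusted p = 0.0527). The call was also lost without 14 d replicate 1 or 2 (edgeR adjusted p = 0.0940 and 0.105). In both genes the other 5 seedlings lay within a narrow range. TRINITY_DN56270_c0_g1, with the largest log2 change at 500 CPM or more (3.64, edgeR adjusted p = 0.00490), differed between seedlings in another way. It had 3532, 2674 and 371 CPM at 14 d, against 258, 124 and 146 CPM at 7 d, so that all 14 d seedlings were above all 7 d seedlings while replicate 3 came close to them.

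14 d replicate 3 was compared with the 7 d libraries in genes chosen by a 2-fold cut that left it out. The choice was not fully free of it. The mean of 5 CPM or more, the count filter and the scaling came from all salt libraries, the held-out one included. The same 7 d libraries chose these genes and scored the held-out library. The 2-fold cut also raises the distances in the libraries that chose the genes. The values below are therefore descriptions. Among genes of 5 CPM or more, 558 were at least 2-fold above the highest 7 d library in both 14 d replicates 1 and 2. In 14 d replicate 3, 507 of these (90.9%) were also above all 7 d libraries, with a median distance of 1.26 log2 units from the 7 d mean, against 1.70 in the libraries that chose them. The 463 genes that were at least 2-fold below the lowest 7 d library in 14 d replicates 1 and 2 held in fewer cases. In 14 d replicate 3, 328 of them (70.8%) were below all 7 d libraries, 74 lay within the 7 d range and 61 above it, with a median distance of -0.74 against -1.83. Genes chosen in the same way with 14 d replicate 1 or 2 held out were beyond the 7 d range in the held-out library in 98.9 to 100% of cases. Those lists are shorter, at 316 and 345 higher and 145 and 175 lower genes, because replicate 3 helped to choose them, so the shares are not on 1 scale. Depth, the share of counts in the 100 leading genes (14.3%, 12.5% and 12.8% at 14 d, against 13.8%, 13.8% and 13.9% at 7 d) and the number of genes with a count (186496, 191474 and 195623 at 14 d, against 190224, 189451 and 180004 at 7 d) are given for comparison, and their part in the result was not tested.

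**Figure D5:**
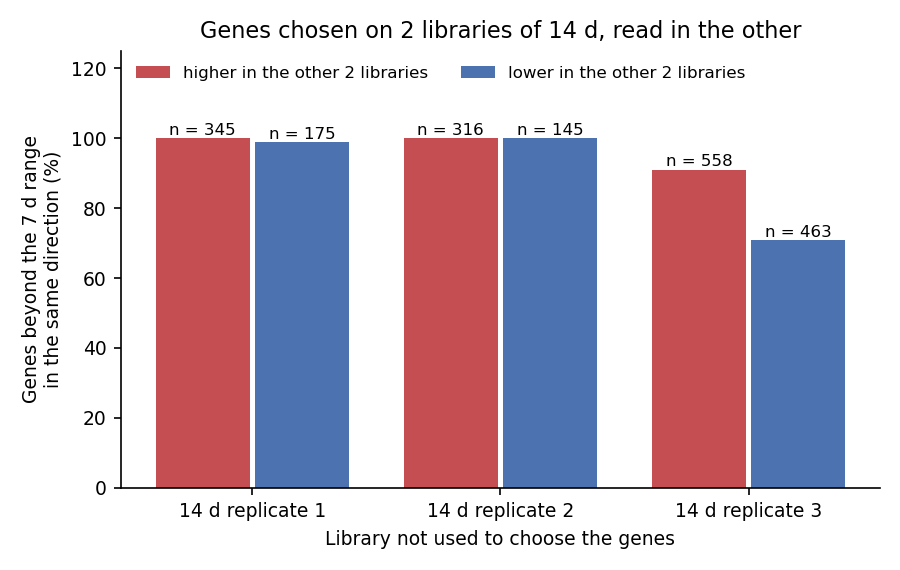
For each 14 d library, the percentage of chosen genes that were also beyond the 7 d range in that library. Genes were chosen as at least 2-fold beyond all 7 d libraries in the other 2 libraries of 14 d. They also had a mean of 5 CPM or more over all salt libraries, the held-out one included. Higher genes are in red and lower genes in blue, with the number of genes above each bar. The values are 90.9% and 70.8% for replicate 3 and between 98.9% and 100% for replicates 1 and 2.

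Isoforms of a called gene mostly moved together. Of the called genes, 2897 had 2 or more tested isoforms, and 8331 of their 9148 isoforms (91.1%) had the direction of the gene. This compares with 75.2% over all genes with 2 or more tested isoforms. In 2242 of the 2897 genes (77.4%, against 46.5% over all such genes) no isoform pointed the other way. The gene is the sum of its isoforms, so part of this is set by construction. In 31 of these 2897 called genes (1.07%, against 1.43% over all such genes) at least 1 isoform was itself called in the opposite direction. In 993 of them no single isoform was called, against 14187 of all 17152 such genes. From 5 to 50 CPM the share of genes called was 18.4% of 4659 genes with 1 assembled isoform, 18.6% of 7502 with 2 to 4, 16.7% of 3020 with 5 to 9 and 14.1% of 327 with 10 or more.

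Assembled genes of the same read cluster (the identifier before the gene number) share sequence, since the assembler placed their reads together, and may be copies, alleles or pieces of 1 gene. In 572 clusters exactly 2 genes were called, and in 418 of these (73.1%) both had the same direction. Over all 6599 clusters with exactly 2 tested genes the share was 55.8%. The 572 clusters could hold further tested genes, and the direction of an uncalled gene is less certain. The shares are therefore not on 1 scale. Such pairs can share reads, so they are not independent calls.

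The fresh water libraries, which had no part in the calls, were set beside the salt times on a scale common to all 9 libraries. Genes called higher at 14 d had a median of 2.51 log2 CPM at 14 d, 1.27 at 7 d and 2.25 in fresh water. Genes called lower had a median of 2.59 at 14 d, 3.64 at 7 d and 2.82 in fresh water. The mean fresh water level was nearer to 14 d than to 7 d in 70.6% of the higher genes, against 57.2% of all genes tested. For the lower genes the share was 59.6%, close to that of all genes, with 57.3% when only genes of 5 CPM or more were fitted and 56.1% without 7 d replicate 1. It lay between the times for 48.8% of the higher genes, above both for 40.1% and below both for 11%. For the lower genes it lay between the times for 46.5%, above both for 18.8% and below both for 34.8%. The same 6 libraries set the calls and the distances here, so these shares are descriptions.

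Single genes of the named list showed more than one course. Of the 12 higher genes, 11 had all 3 fresh water libraries above all 3 of 7 d, as had 68.8% of all genes called higher and 20.8% of genes tested. The choice of genes by their low 7 d levels favours this count and the share among called genes. In 7 of the 12 the fresh water and 14 d libraries overlapped, as in 52.4% of genes called higher and 67.4% of genes tested. The abundant TRINITY_DN31859_c0_g1, TRINITY_DN3923_c1_g1 and TRINITY_DN3845_c2_g2 had fresh water levels above every salt library, at 2215, 4259 and 1913 CPM on average. By contrast TRINITY_DN1090_c0_g2 averaged 1.74 CPM in fresh water, below all 14 d libraries. Of the 12 lower genes, 8 had all 3 fresh water libraries below all 3 of 7 d, as had 58.3% of all genes called lower and 19.7% of genes tested. Here the choice of genes by their high 7 d levels favours the count and the share among called genes. TRINITY_DN5701_c0_g1 was the extreme of the 8, with 6.27, 3.54 and 1.74 CPM in fresh water. In TRINITY_DN1158_c0_g1 and TRINITY_DN5170_c0_g1, on the other hand, fresh water levels were above all salt libraries, at 2555 and 287 CPM on average. Fresh water seedlings differed widely among themselves in some of these genes: TRINITY_DN8664_c0_g6 had 788, 78.0 and 104 CPM and TRINITY_DN10242_c0_g2 had 34.5, 0.960 and 1.21 CPM. Among the higher genes, TRINITY_DN10346_c0_g1 had 7.60, 0 and 0 CPM in fresh water.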

How the data were processed

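The deposited table gives one whole-number estimated count per assembled transcript and library, made by the authors from leaf RNA-seq reads. Per the submitters' processing notes, the tools were FastQC, HISAT2 and Salmon, with no version or role stated. The identifiers begin with TRINITY, the form that the Trinity assembler writes, and no version of it is stated. Estimated counts divide reads among similar transcripts, so isoforms and close copies can share reads. Each of the value columns matched 1 sample by title, with 0 columns unmatched.

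Counts were summed per assembled gene and used as whole numbers. The 6 salt libraries were fitted alone with edgeR 4.0.16 in R 4.3.3: filterByExpr (minimum count 10, total 15), TMM scaling, glmQLFit and glmQLFTest, 14 d over 7 d, without a replicate block, with Benjamini-Hochberg adjustment at 0.05. The procedure was tested on simulated data. SE is the log2 change divided by the root of its F statistic. CPM uses TMM-scaled library sizes, and log2 CPM a prior count of 2. Bands were set by mean CPM over the 6 libraries, with edges at 1, 5, 50 and 500. Single values per library were compared by exact two-sided permutation tests. For the distances, the exact permutation test counted the splits with a difference at least as large as the observed one. Named genes were, per direction and band from 5 CPM up, the 4 called genes with the widest gap between the times, plus the 4 most abundant genes and the most abundant genes seen at 1 time only. The comparison, the bands and the rules were chosen with earlier results of these data known.

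The 3 seedlings of a time are treated as independent, and p-values measure the spread between them. Depth per library and the level of 3 counts are given with the results. The fold bounds of genes without a count at 1 time cover counting error only. SE comes from the quasi-likelihood fit and includes the fitted spread between seedlings, and SD is the spread between libraries. Alternatives were DESeq2 1.42.0 and limma-voom (limma 3.58.1), other scalings, filters and thresholds, a replicate block, all 9 libraries in the fit, transcripts in place of genes, and leaving out each library. The scaling common to all 9 libraries, the isoform directions, the held-out comparison, the single-library genes and the shares per band were added after the data were seen.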

Additional observations from a re-analysis of the deposited data

How the results depend on the processing

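The median standard error was largest under 1 CPM, and 3 seedlings per time cannot give an exact permutation p below 0.1. The 24 genes named by band kept their direction and call in all alternatives fitted per gene, which their choice by the widest gaps favours. The fit of transcripts in place of genes gave no value for them. At an adjusted p below 0.01, 2973 genes were called, 1978 higher and 995 lower (66.5% higher), 2316 of them at least 2-fold, with 275, 979, 1227, 467 and 25 calls from the lowest band to the highest, and 93.6% of isoforms had the direction of their gene. Genes of 5 CPM or more fitted alone gave 3912 calls, 2327 higher and 1585 lower, 1264 of them at least 2-fold. Without a filter 56.6% of calls were higher, 6878 were at least 2-fold, and 2737 lay under 1 CPM and 64 at 500 CPM or more. The share of higher calls was 57.8% with DESeq2 size factors in edgeR, 66.4% with total counts only, 57.7% with DESeq2 (395 calls under 1 CPM), 57.6% with limma-voom and 62.9% over transcripts, where 584 calls lay from 50 to 500 CPM and 25 above. With 20 or more counts, 11 genes were seen only at 14 d and 1 only at 7 d. The log2 change of TRINITY_DN8316_c0_g1 was 0.000207 with total counts only. The cause of these differences was not tested.

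Leaving out 1 library gave 3263 to 12573 calls, 2073 to 6961 higher and 1190 to 5612 lower, 55.4% to 64.5% of them higher, and 2575 to 7292 at least 2-fold. Calls numbered 332 to 1862 under 1 CPM, 1185 to 4515 from 1 to 5, 1282 to 4530 from 5 to 50, 441 to 1593 from 50 to 500 and 23 to 73 above. From 88.7% to 93.5% of isoforms had the direction of their gene. Genes seen only at 14 d numbered 24 to 67 and those only at 7 d 11 to 30, numbers that could only stay or rise when a library was left out. Log2 changes of 3 abundant uncalled genes crossed 0: -0.0182 to 0.58 for TRINITY_DN4062_c0_g2, -0.23 to 0.18 for TRINITY_DN8316_c0_g1 and -0.49 (called, without 14 d replicate 3) to 0.0778 for TRINITY_DN7702_c0_g1.

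Deviations from the time means had correlations of 0.03, 0.40 and 0.17 between same-numbered libraries, against -0.28 to 0.13 between libraries of different numbers. The same-numbered values were not all above 0.1, so the numbers were not taken as pairs. An effect shared by some same-numbered libraries is not excluded by this. Not every library correlated best with its own number. With the replicate block 8168 genes were called, 57.3% of them higher.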
